A study of Homo sapiens with 2 samples.

Results

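The immediate early genes described here are FOS, FOSB, JUN, JUNB, JUND, EGR1, ATF3, IER2, IER3 and NR4A1. They were taken by gene symbol and are 10 of the 33694 genes counted. All 10 were found under their symbols, and all 10 had unique molecular identifiers (UMIs) in every class of cells and in both libraries. They were read in eBCs, insulin-producing cells differentiated from human embryonic stem cells.

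The eBCs came from iSOX9KO, 1 clonal derivative of the Mel1-INS-GFP stem cell line, which carries GFP in the insulin locus, a doxycycline (DOX) inducible Cas9 and constitutive guides against SOX9. The group labelled no DOX carries the same cassette and received no DOX, and the group labelled DOX received 2 ug/ml from day 12 of the differentiation. By the study's methods, eBCs are reaggregated from cells sorted for GFP, and were later dissociated and sorted for live cells before capture on the 10X platform. Each group is 1 library, so nothing was tested between groups, a gene is called only when it passes a stated fold, and every interval given is a 95% interval that covers counting error only. SOX9, the targeted gene, had 946 UMIs under the no DOX label, or 2.998 per 1000000 UMIs (CPM), and 1147 UMIs or 3.78 CPM under the DOX label. The log2 ratio was 0.33 (0.21 to 0.46). The RNA of the targeted gene was therefore not lower in the library labelled DOX, and its protein was not measured in these libraries. UMI counts of its RNA do not show whether the gene was edited in these cells. Most SOX9 UMIs were in the few duct-like cells described below, so this ratio rests largely on that class. Every direction below is a direction between libraries named by their labels. Whether the labels of the 2 libraries are exchanged was not tested, and an exchange would turn every direction between them. Where a pair of values is given, the library labelled no DOX comes first.

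Immediate early genes are transcribed within minutes of a stimulus from factors that are already present, without new protein synthesis. Growth factors, membrane depolarization, cAMP, calcium entry and cellular stress act on them through ERK, p38, JNK and calcium-dependent kinases, which modify the serum response factor with its ternary complex factors, and CREB. Most of their products are transcription factors, and FOS and JUN proteins pair to form AP-1. In islet cells, glucose and incretin signals raise calcium and cAMP and are known inducers of several of these genes. The part of the dissociation and sorting before capture in the levels below was not tested.

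To show the elements through which such inputs are known to act, 5 promoters are printed as examples, each the 250 bases before the start of transcription, 5′ to 3′ on the gene's strand. They were taken from RefSeq on GRCh38.p14. FOS lies at chr14:75278578-75278827 on the plus strand, EGR1 at chr5:138465229-138465478 on the plus strand, IER2 at chr19:13150161-13150410 on the plus strand, JUN at chr1:58784048-58784297 on the minus strand and JUND at chr19:18281623-18281872 on the minus strand. Capitals mark TGACG on either strand (the core of the cAMP response element), the full element TGACGTCA, TGACATCA (a variant AP-1 site), TATAAA (the TATA box) and the CArG box bound by serum response factor.
FOS: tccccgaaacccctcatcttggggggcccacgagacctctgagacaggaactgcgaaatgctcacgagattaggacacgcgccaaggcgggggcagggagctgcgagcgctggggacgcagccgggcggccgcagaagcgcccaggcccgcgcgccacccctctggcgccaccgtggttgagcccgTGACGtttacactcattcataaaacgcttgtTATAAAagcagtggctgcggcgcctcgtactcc
EGR1: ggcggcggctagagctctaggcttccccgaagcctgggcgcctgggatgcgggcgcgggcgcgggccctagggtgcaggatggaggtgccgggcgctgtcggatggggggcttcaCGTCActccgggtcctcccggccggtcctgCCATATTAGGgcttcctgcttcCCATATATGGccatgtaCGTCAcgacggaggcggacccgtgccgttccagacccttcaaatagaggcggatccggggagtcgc
IER2: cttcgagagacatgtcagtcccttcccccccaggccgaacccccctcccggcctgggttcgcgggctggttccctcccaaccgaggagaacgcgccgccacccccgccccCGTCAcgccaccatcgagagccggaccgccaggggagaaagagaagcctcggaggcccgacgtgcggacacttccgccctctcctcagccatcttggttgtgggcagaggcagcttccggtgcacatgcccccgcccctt
JUN: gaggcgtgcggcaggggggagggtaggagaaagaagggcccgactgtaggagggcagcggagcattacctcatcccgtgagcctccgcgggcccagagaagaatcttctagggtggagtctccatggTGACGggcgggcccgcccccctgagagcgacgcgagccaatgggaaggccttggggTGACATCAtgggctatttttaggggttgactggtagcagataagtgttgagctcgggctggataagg
JUND: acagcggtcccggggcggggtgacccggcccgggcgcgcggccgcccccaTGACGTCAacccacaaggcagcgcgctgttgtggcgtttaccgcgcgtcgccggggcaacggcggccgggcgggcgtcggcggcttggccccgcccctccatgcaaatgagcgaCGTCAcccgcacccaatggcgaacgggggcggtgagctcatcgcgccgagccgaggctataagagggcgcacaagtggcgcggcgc
Of the 10 genes, 9 had an entry and IER3 had none. TGACG was found in 7 of the 9, and in 21.2% of 35116 promoters of the same length. In FOS it began 64 bases before the start, in FOSB 60, in JUN 123, in JUNB 137, in IER2 140, and in EGR1 135 and 66. JUND held it 3 times, of which 2 overlap as the full element TGACGTCA that 1.65% of promoters held. CArG boxes were found in EGR1 alone among the 9, with 2 in the window, and in 1.16% of all promoters. TGACATCA stood 67 bases before the start of JUN and 123 before that of ATF3, against 2.37% of promoters. TATAAA was found in FOS, FOSB, JUNB and at the second start of ATF3, against 10.7%. It began 33, 30 and 31 bases before the start in FOS, FOSB and JUNB. At the second start of ATF3 it began 230 bases before, so there only the letters match and it is not called a TATA box. ATF3 and NR4A1 have 2 starts each and count if either matches, while the shares are of single promoters. GGGCGG, the GC box, was found in 7 of 9 members and in 42.6% of promoters, and TGACTCA, the consensus AP-1 site, in 0 of 9 and in 4.2%. Each match describes these letters in this window only.

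The libraries held 30288 and 31817 barcodes, and after removal of barcodes under 1000 UMIs and of called doublets 21805 and 23116 cells were left with medians of 13958 and 12667 UMIs. Clusters were named from marker genes that excluded all lists used here, and beta-like cells numbered 7050 and 9907, beta cell progenitor-like cells 5366 and 5319, alpha-like cells 4967 and 4102, delta-like cells 2640 and 1942, proliferating progenitor-like cells 477 and 494, and duct-like cells 154 and 178. Each named class had at least 13 of its markers at 2-fold or more over the other cells. The names were given by these same markers, so this is no separate check of them. SST, the delta cell hormone, was at 220450 and 216926 CPM in delta-like cells and at 4365 and 4011 CPM in beta-like cells. Whether the SST RNA in beta-like cells was their own or came from other cells was not tested. A further cluster of 1151 and 1174 cells had medians of 75.6% and 66.8% mitochondrial UMIs and stayed unnamed. Between the libraries, 141 barcodes of kept cells were shared, and values with and without them differed by little (median log2 ratio of the 10 genes -0.05 in both). Clusters are classes drawn from the same cells, so a class set against another is a description.

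Among the AP-1 genes of the FOS family, both members were highest in delta-like cells of the 6 named classes, and the unnamed cluster had more FOSB (42.2 and 36.0 CPM). FOS (ENSG00000170345, chromosome 14 from 75278826 to 75282230, 4 exons), the main inducible partner of JUN, was at 451 CPM (444 to 458) and 408 CPM (400 to 416) in delta-like cells. Beta-like cells had 137 and 115 CPM, while the lowest values, 40.0 and 44.9 CPM, were in beta cell progenitor-like cells. The highest class was 11.3-fold and 9.09-fold above the lowest. Alpha-like cells lay between, at 210.5 and 252 CPM, and proliferating progenitor-like cells were at 222 and 215 CPM. Under the no DOX label the ratio of each pair of neighbours in this order of 6 classes had an interval without 1, and in the library labelled DOX duct-like and beta-like cells could not be told apart. FOSB (ENSG00000125740, chromosome 19 from 45467995 to 45475179), a second FOS family protein, was at 26.6 CPM (24.97 to 28.4) and 22.2 CPM (20.4 to 24.2) in delta-like cells against 2.93 and 2.31 CPM in beta-like cells. Its lowest class differed from that of FOS. It was duct-like cells under the no DOX label, at 2.35 CPM and not told apart from the next class, and beta-like cells under the DOX label. Alpha-like cells had 11.5 and 20.3 CPM of FOSB, and the interval of the second value (19.1 to 21.6) overlapped that of delta-like cells. FOSB overlaps ERCC1 on the other strand, and whether the counting used strand is not given in the sources used here.

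The JUN family split. JUN (ENSG00000177606, chromosome 1 from 58776845 to 58784048), which has 1 exon and pairs with FOS, was at 576 CPM (568 to 584) and 523 CPM (514 to 532) in delta-like cells, 277 and 257 CPM in beta-like cells, and lowest in beta cell progenitor-like cells, with 175 and 205 CPM. Its spread over classes was 3.29-fold and 2.56-fold, from delta-like down to progenitor-like cells. JUNB (ENSG00000171223, chromosome 19 from 12791486 to 12793315), a JUN protein that can restrain JUN activity, was highest in alpha-like cells, at 121 CPM (118 to 124) and 160 CPM (157 to 164). Delta-like cells had 113 and 106 CPM of JUNB, beta-like cells 67.9 and 71.0 CPM, and beta cell progenitor-like cells 23.0 and 27.2 CPM. The order of alpha-like over delta-like cells was the reverse of that of JUN, and in both libraries the intervals did not overlap. JUND (ENSG00000130522, chromosome 19 from 18279694 to 18281622), the JUN family member known for steady rather than induced expression, varied least, with 1.73-fold and 1.97-fold between its highest and lowest class. In beta cell progenitor-like cells it was at 467 and 526 CPM, with 376 and 375 CPM in beta-like cells, 394 and 394 CPM in delta-like cells and 320 and 333 CPM in alpha-like cells. JUNB overlaps HOOK2 on the other strand.

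EGR1 (ENSG00000120738, chromosome 5 from 138465479 to 138469303), a zinc finger factor induced through serum response factor, was at 307 CPM (301 to 312) and 275 CPM (268 to 281) in delta-like cells. Alpha-like cells had 151 and 158 CPM, beta-like cells 71.4 and 62.4 CPM, and beta cell progenitor-like cells 45.6 and 46.4 CPM. Delta-like cells were highest and alpha-like cells next in both libraries, with no overlap of intervals between them. ATF3 (ENSG00000162772, chromosome 1 from 212565334 to 212620777), a stress-induced repressor of the CREB and ATF family, had another order. Its highest level was in duct-like cells of the library labelled no DOX, at 66.7 CPM (57.1 to 77.5). In the library labelled DOX it was highest in proliferating progenitor-like cells, at 60.8 CPM (55.4 to 66.5), and these could not be told apart from duct-like cells, at 60.3 CPM (51.9 to 69.7). Delta-like cells had 56.4 and 49.3 CPM of ATF3, beta-like cells 11.9 and 8.29 CPM, and beta cell progenitor-like cells 5.93 and 6.04 CPM. Beta-like and beta cell progenitor-like cells were the lowest classes for ATF3, while for EGR1 duct-like cells, at 30.6 and 47.9 CPM, lay below beta-like cells.

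IER2 and IER3 share a name but moved apart over the classes. IER2 (ENSG00000160888, chromosome 19 from 13150411 to 13154911), a nuclear protein of the early response, was at 610 CPM (602 to 618) and 576 CPM (566 to 586) in delta-like cells, 425 and 496 CPM in alpha-like cells, 213 and 218 CPM in beta-like cells and, in beta cell progenitor-like cells, 65.5 and 79.0 CPM. Its order of classes was the same in both libraries, and alpha-like and proliferating progenitor-like cells could not be told apart within their intervals in either. Nor could beta-like and duct-like cells under the DOX label, at 217.9 and 217.3 CPM. IER3 (ENSG00000137331, chromosome 6 from 30743199 to 30744548), which is known to affect cell survival and ERK signalling, was lowest in delta-like cells, at 5.89 CPM (5.12 to 6.74) and 5.63 CPM (4.72 to 6.66). Under the DOX label beta cell progenitor-like cells, at 6.55 CPM (5.90 to 7.24), could not be told apart from delta-like cells. Duct-like cells were highest for IER3, at 67.1 CPM (57.4 to 78.0) from 171 UMIs and 35.7 CPM (29.3 to 43.1) from 109 UMIs. Beta-like cells had 17.7 and 15.8 CPM of IER3 and alpha-like cells 22.3 and 19.8 CPM. Both genes overlap non-coding genes on the other strand. NR4A1 (ENSG00000123358, chromosome 12 from 52022832 to 52059507), an orphan nuclear receptor induced by calcium and cAMP, was at 12.3 CPM (10.1 to 14.9) and 19.9 CPM (16.9 to 23.2) in proliferating progenitor-like cells, 11.3 and 17.0 CPM in alpha-like cells, 11.4 and 13.99 CPM in delta-like cells, and 2.56 and 2.21 CPM in beta-like cells. The 3 higher classes overlapped in the library labelled no DOX, and NR4A1 also overlaps NR4A1AS on the other strand.

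**Figure D1:**
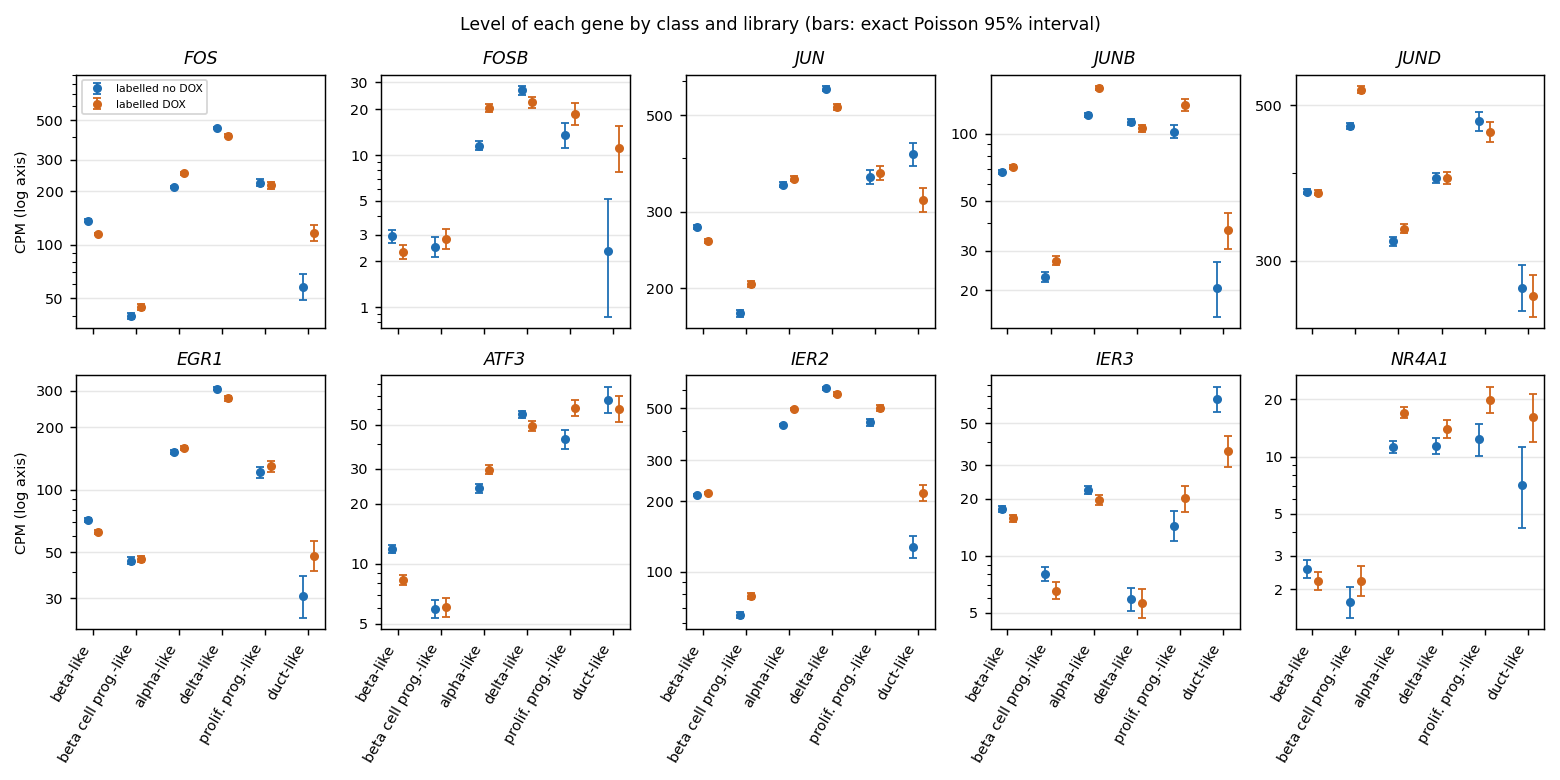
Level of each gene in CPM on a log axis (vertical) in the 6 named classes (horizontal), with label no DOX in blue, label DOX in orange and bars for the exact Poisson 95% interval. FOS, FOSB, JUN, EGR1 and IER2 peak in delta-like cells, where IER3 is lowest at 5.89 and 5.63 CPM, and the axis range differs between panels.

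Set against beta-like cells, delta-like cells had 7 of the 10 genes at least 2-fold higher in both libraries and 1 at least 2-fold lower, where 4.41% of 10180 genes were called higher and 5.24% lower. The 7 were FOSB, with log2 ratios of 3.18 (3.01 to 3.36) and 3.27 (3.07 to 3.46), ATF3 with 2.25 and 2.57, NR4A1 with 2.15 and 2.66, EGR1 with 2.10 and 2.14, FOS with 1.72 and 1.83, IER2 with 1.52 and 1.40, and JUN with 1.06 and 1.02. The gene lower in delta-like cells was IER3, at -1.59 (-1.80 to -1.39) and -1.49 (-1.75 to -1.24). JUNB was at 0.74 and 0.57, and JUND at 0.07 in both libraries. FOSB and NR4A1 were under the filter of 5 CPM in beta-like cells, so they entered this and the next comparisons only through the class where they were higher and could not have been called lower. Among genes with at least 5 CPM in beta-like cells of both libraries, 5 of 8 members were at least 2-fold higher in delta-like cells and 1 lower, against 2.12% and 5.55% of 9595 genes. The study's own marker genes for delta cells include several immediate early genes, so the direction was known from these samples, and the clusters used these genes among 2293 variable ones. With clustering rerun without them the count was again 7.

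Alpha-like cells had 4 of 10 genes at least 2-fold higher than beta-like cells in both libraries, against 5.44% of 10220 genes, and 0 at least 2-fold lower, against 4.76%. They were FOSB (1.98 and 3.14), NR4A1 (2.14 and 2.94), EGR1 (1.08 and 1.34) and ATF3 (1.01 and 1.84). Over the 8 members with at least 5 CPM in beta-like cells the count was 2, EGR1 and ATF3, against 2.63% of genes. FOS, JUNB and IER2 passed 2-fold in the library labelled DOX, at 1.14, 1.17 and 1.19, and had 0.62, 0.83 and 0.99 in the other. In proliferating progenitor-like cells 4 of 10 were at least 2-fold higher, FOSB, ATF3, IER2 and NR4A1, against 16.8% of 10888 genes, and 0 were lower, against 2.89%. Over the 8 members the count was 2, ATF3 and IER2, against 9.35% of genes. These cells also had RNA of hormones that mark other classes, with GCG at 6107 and 10980 CPM and SST at 22815 and 11884 CPM. Its source and its part in these levels were not tested.

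In beta cell progenitor-like cells 8 of the 10 genes passed the filter, FOSB and NR4A1 not. Of the 8, 0 were at least 2-fold higher than in beta-like cells, against 24.2% of 10865 genes, and 4 were at least 2-fold lower, against 3.38%. The 4 were FOS, with log2 ratios of -1.77 (-1.83 to -1.71) and -1.35 (-1.41 to -1.29), IER2 with -1.70 and -1.46, JUNB with -1.56 and -1.39, and IER3 with -1.15 and -1.27. ATF3 (-1.002 and -0.46), JUN (-0.66 and -0.33) and EGR1 (-0.65 and -0.43) were also below beta-like cells. With the smaller ratio of both libraries for each gene, the median of the 8 was -0.80, beside 0.55 for all genes. Within each library the median of all genes was shifted by 0.59 and 0.60 in the same comparison. JUND, at 0.31 and 0.49, was above 0 but below that median, so its direction flips once values are scaled to the median of all genes. In proliferating progenitor-like cells the shift was 0.32 in both libraries and JUND had 0.33 and 0.29, above that median in the first library and below it in the second.

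Duct-like cells were few, and 9 of 10 genes passed the filter. There, 3 were at least 2-fold higher than in beta-like cells in both libraries, against 20.1% of 11123 genes, namely ATF3 (2.49 and 2.86), IER3 (1.92 and 1.18) and NR4A1 (1.46 and 2.86), and 0 were lower in both, against 11.7%. Over the 8 members the count was 2, ATF3 and IER3, against 10.3% of genes. The count of NR4A1 rested on 18 and 49 UMIs. After thinning to 5000 UMIs ATF3 alone passed, and the smaller ratios of IER3 and NR4A1 were 0.94 and 0.89.

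**Figure D2:**
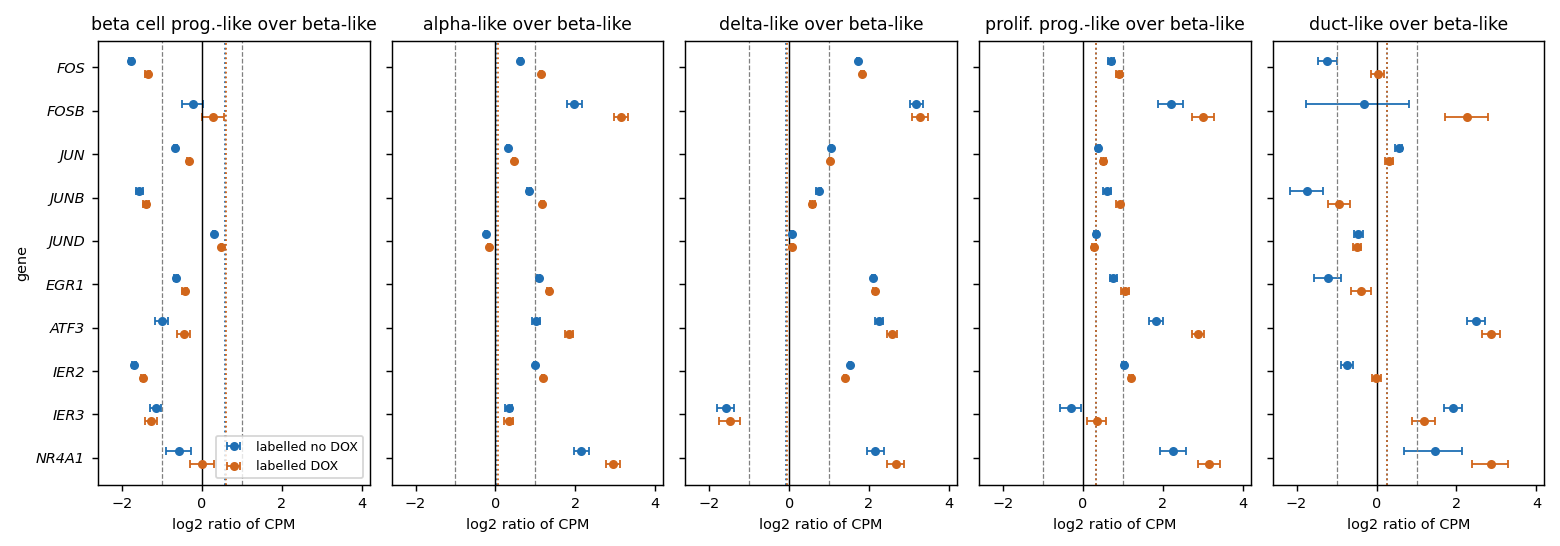
Log2 ratio of CPM over beta-like cells (horizontal) for each gene (vertical) in 5 classes, with exact 95% intervals, dashed lines at 2-fold and dotted lines at the median of all genes. In delta-like cells 7 genes lie right of the 2-fold line and IER3 left of it, and in progenitor-like cells FOS, JUNB, IER2 and IER3 lie left of it.

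Between the libraries, over all cells kept, 0 of 10 genes were at least 1.5-fold lower in the library labelled DOX, against 0.402% of 10444 genes, and 0 were at least 1.5-fold higher, against 0.201%. The median log2 ratio of the 10 was -0.05, beside -0.01 for all genes. EGR1 had the lowest value, -0.23 (-0.25 to -0.21), from 111 to 94.4 CPM, and NR4A1 the highest, 0.20 (0.11 to 0.29), from 5.65 to 6.49 CPM. FOS was at 169 and 150 CPM, a log2 ratio of -0.17, and ATF3 at 19.6 and 17.0 CPM, a log2 ratio of -0.20. The remaining genes ran from -0.13 for IER3 to 0.12 for JUNB. With the 6 classes weighted equally 5 genes turned from below to above 0, FOSB to 0.52, IER2 to 0.24, FOS to 0.16, EGR1 to 0.08 and ATF3 to 0.0013, and NR4A1 and JUNB were at 0.49 and 0.31. Duct-like cells, 154 and 178 in number and with 6 and 34 FOSB UMIs, count there as much as any other class. The part of that class in these turns was not tested. With 1 library per group, how far such values vary between replicate cultures is unknown.

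The direction between libraries was not shared by the classes. In alpha-like cells 9 of 10 genes were above 0, as were 60.5% of all genes, with a median of 0.24 beside 0.03, and 2 of 10 passed 1.5-fold, against 0.663% of 9949 genes: FOSB, from 11.5 to 20.3 CPM (log2 0.82, 0.68 to 0.95), and NR4A1, from 11.3 to 17.0 CPM (0.59, 0.45 to 0.73). In delta-like cells 9 of 10 were below 0, as were 36.1% of all genes, with a median of -0.12 beside 0.04, and 0 passed, against 0.539%. Beta-like cells had 6 of the 8 genes over the filter below 0, beside 54.5% of all genes, with ATF3 lowest at -0.52 (-0.62 to -0.41), and 0 of 8 passed, against 0.741%. Beta cell progenitor-like cells had 7 of 8 above 0, beside 55.5% of all genes, with IER2 at 0.27 and JUNB at 0.24, and 0 of 8 passed, against 0.813%. The larger finer cluster of that class, with 4669 and 4563 cells, had IER2 at 59.3 and 66.7 CPM and FOS at 36.3 CPM in both libraries, and a smaller one with more of both genes had 392 and 633 cells. Finer clusters made up the beta-like cells in different shares, with 830 and 1721 cells in the cluster where ATF3 was lowest (3.22 and 4.45 CPM), and ATF3 had 13.7 and 7.26 CPM in the cluster led by MT1B and FABP1 and 11.8 and 10.7 CPM in the cluster led by NEFL and WSCD2. These are opposite directions of small size in classes from the same pair of libraries, and the difference between classes was not tested.

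The 2 small classes gave wider intervals. In proliferating progenitor-like cells 1 of 10 genes, NR4A1 (0.69, 0.33 to 1.06), passed 1.5-fold, against 2.85% of genes. In duct-like cells 7 of 10 passed, 6 higher and 1 lower, against 17.0% of genes in either direction. FOSB, which passed the filter only through the library labelled DOX and could not have been called lower, had 6 and 34 UMIs there (2.24, 0.97 to 3.79), FOS 148 and 356 UMIs (1.01, 0.73 to 1.29) and NR4A1 18 and 49 UMIs (1.18, 0.38 to 2.05), while IER3 was lower at -0.91 (-1.27 to -0.55). Markers of other cell types also differed between the duct-like cells of the 2 libraries. Their sum was 204 CPM (187 to 223) and 116 CPM (105 to 129). The part of these markers' cells in the members' values was not tested. Duct-like cells also held most SOX9 UMIs, at 252 and 283 CPM, so the RNA of the targeted gene was not lower where it was highest.

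**Figure D3:**
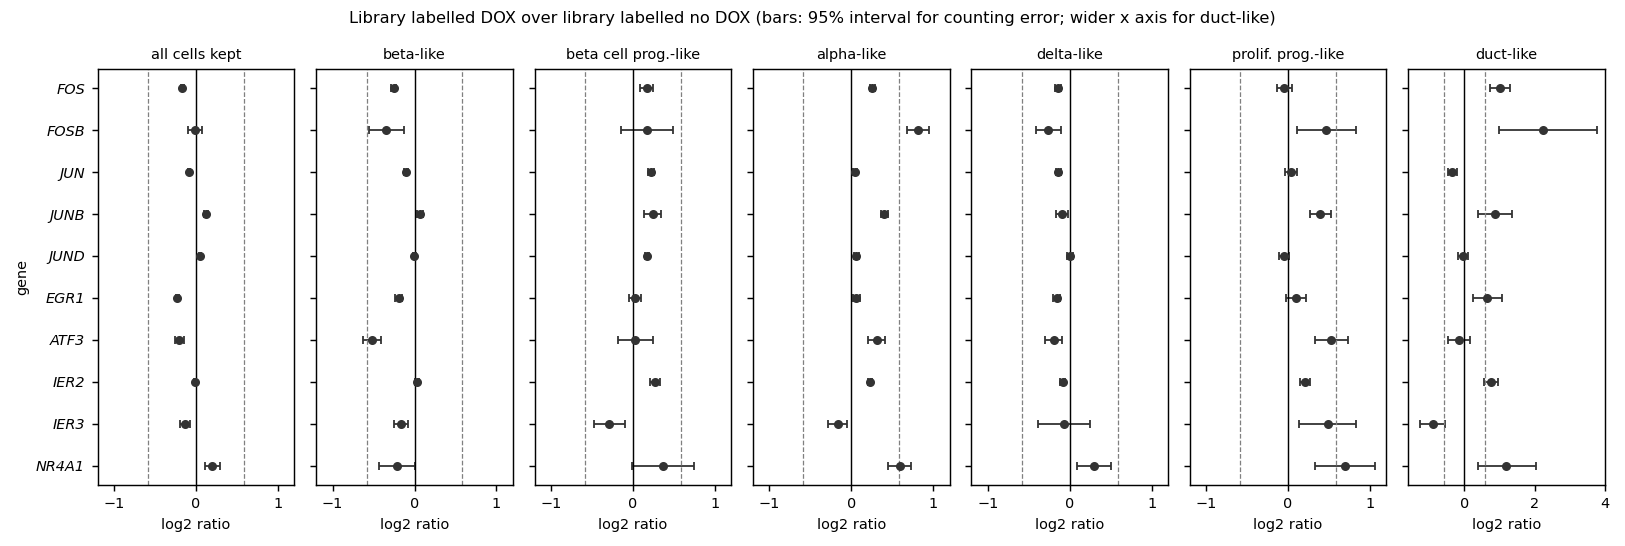
Log2 ratio between the libraries, DOX label over no DOX label (horizontal), for each gene (vertical), over all cells kept and in 6 classes, with 95% intervals for counting error and dashed lines at 1.5-fold. Alpha-like values lie mostly right of 0 and delta-like values mostly left, and the duct-like panel has a wider axis.

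Further immediate early genes were also higher in delta-like cells, with other counts in other classes. Of 34 listed, 21 passed the filter between delta-like and beta-like cells, and 12 were at least 2-fold higher in both libraries and 0 lower, against 4.41% and 5.24% of all genes. Of the 12, 6 (EGR2, EGR3, EGR4, NR4A2, NPAS4 and IER5) were at 1.34 to 3.07 CPM in beta-like cells, entered only through delta-like cells and could not have been called lower. Among the 15 with at least 5 CPM in beta-like cells, 6 were higher and 0 lower, against 2.12% and 5.55% of genes. The 12 included the EGR1 relatives EGR3 (log2 ratios of 3.80 and 3.68) and EGR2 (3.26 and 3.13), NPAS4, a calcium-induced factor of excitable cells (3.42 and 3.16), the phosphatase DUSP1, which switches MAP kinases off (1.38 and 1.47), and the antiproliferative gene BTG2 (1.10 and 1.18). EGR4, NR4A2, IER5, KLF6, DUSP5, DUSP6 and MCL1 were the other 7, and RHOB, the highest of the list, was at 0.08 and 0.16. In beta cell progenitor-like cells 16 passed, of which 1 was at least 2-fold higher and 4 lower than in beta-like cells, against 24.2% and 3.38% of all genes, and in duct-like cells 20 passed, of which 8 were higher and 2 lower, against 20.1% and 11.7%. Among the 15 with at least 5 CPM in beta-like cells these counts were 0 higher and 4 lower in progenitor-like cells, against 19.1% and 3.82% of genes, and 3 higher and 2 lower in duct-like cells, against 10.3% and 13.5%, so the others called higher entered only through the class where they were higher. Of 23 regulators upstream, 19 passed and 3 were at least 2-fold higher in delta-like cells, against 4.41% of all genes: SRF, the serum response factor itself (1.78 and 1.64), its coactivator MKL2 (1.98 and 1.96) and the kinase RPS6KA3 (1.204 and 1.46). MAP2K2, the highest of that list, was at -0.39 and -0.34. Between the libraries, 2 of the 19 further immediate early genes over the filter were at least 1.5-fold lower in the library labelled DOX, against 0.402% of all genes, EGR2 from 5.56 to 3.18 CPM (-0.81, -0.92 to -0.69) and EGR3 from 8.11 to 5.12 CPM (-0.66, -0.75 to -0.57). EGR2 passed the filter only through the library labelled no DOX and could not have been called higher, and 0 of the 19 upstream regulators passed in either direction. By class, 4 of 21 further immediate early genes were lower in delta-like cells and 0 higher, against 0.539% of genes in either direction. In beta-like cells 0 of 15 and in alpha-like cells 0 of 19 passed, against 0.741% and 0.663%. Beta cell progenitor-like cells had 1 of 14 lower and 0 higher, against 0.813%. Proliferating progenitor-like cells had 1 lower and 1 higher of 20, against 2.85%, and duct-like cells 2 lower and 1 higher of 21, against 17.0%.

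Heat shock genes and markers of other cell types had another pattern. Of 14 heat shock genes, 12 passed the filter between delta-like and beta-like cells and 1, HSPB1, was at least 2-fold higher (1.98 and 2.30), against 4.41% of all genes, with a median over the list of -0.26, and HSP90AB1, the highest, was at -0.43 and -0.35. Between the libraries 2 of 13 were at least 1.5-fold lower in the library labelled DOX, against 0.402% of all genes. HSPA1A went from 94.6 to 27.2 CPM (-1.80, -1.83 to -1.76) and HSPA1B from 39.7 to 13.9 CPM (-1.51, -1.56 to -1.46), while FOS, EGR1 and ATF3 stood between -0.23 and -0.17. The part of this in the members' values was not tested. Of 13 markers of stem, stromal, endothelial, immune, acinar, glial and neuronal cells, 1 passed, the lysosomal gene CD68, which was lower in delta-like cells (-2.56 and -2.47). Their sum was 7.88 and 7.53 CPM in delta-like cells and 19.5 and 19.3 CPM in beta-like cells, and PTPRC, the pan-leukocyte gene, had 5 UMIs in each library.

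The genes were also read in single cells, as the share of cells with a UMI of each. Each cell was thinned to 5000 UMIs, which left out 2544 and 2223 shallower cells. FOS was found in 76.3% (74.6 to 78.0) and 74.1% (72.0 to 76.1) of delta-like cells, 31.6% and 29.1% of beta-like cells and 13.0% and 14.2% of beta cell progenitor-like cells. EGR1 was found in 73.1% and 69.0% of delta-like cells and 25.9% and 23.4% of beta-like cells, and IER2 in 77.6% and 78.1% against 40.8% and 44.1%. JUND was found in 83.0% and 81.7% of delta-like cells and in 80.8% and 81.6% of beta-like cells. NR4A1 stayed rare everywhere, at 5.40% and 6.57% of delta-like cells and 1.02% and 0.95% of beta-like cells. No class here is known to lack these genes, so a background share from free RNA could not be set for them. Without thinning, the median share over the 10 genes in all cells kept was 44.3%, and with thinning 27.9%.

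A delta-like cell had a median of 5 of the 10 genes with a UMI at this depth, beta-like cells 3 and beta cell progenitor-like cells 2. At least 5 of the 10 were found in 57.7% (55.7 to 59.7) and 54.3% (52.0 to 56.6) of delta-like cells, 29.1% and 37.4% of alpha-like cells, 15.5% and 14.5% of beta-like cells and 4.11% and 5.22% of beta cell progenitor-like cells. In alpha-like cells the intervals of the 2 libraries were 27.8 to 30.5% and 35.8 to 39.0%. They cover the sampling of cells only. Cells of the same library are not replicates, so these intervals cannot decide whether the share differs between the groups. The 10% of beta-like cells with the most FOS UMIs held 58.5% and 59.5% of all FOS UMIs, against 30.7% and 31.4% in delta-like cells. Such a share rises as the mean count falls, and beta-like cells had less FOS, so the part of level in this gap was not tested. For JUND the same share was 27.4% and 27.0% in beta-like cells and 27.0% and 26.3% in delta-like cells.

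**Figure D4:**
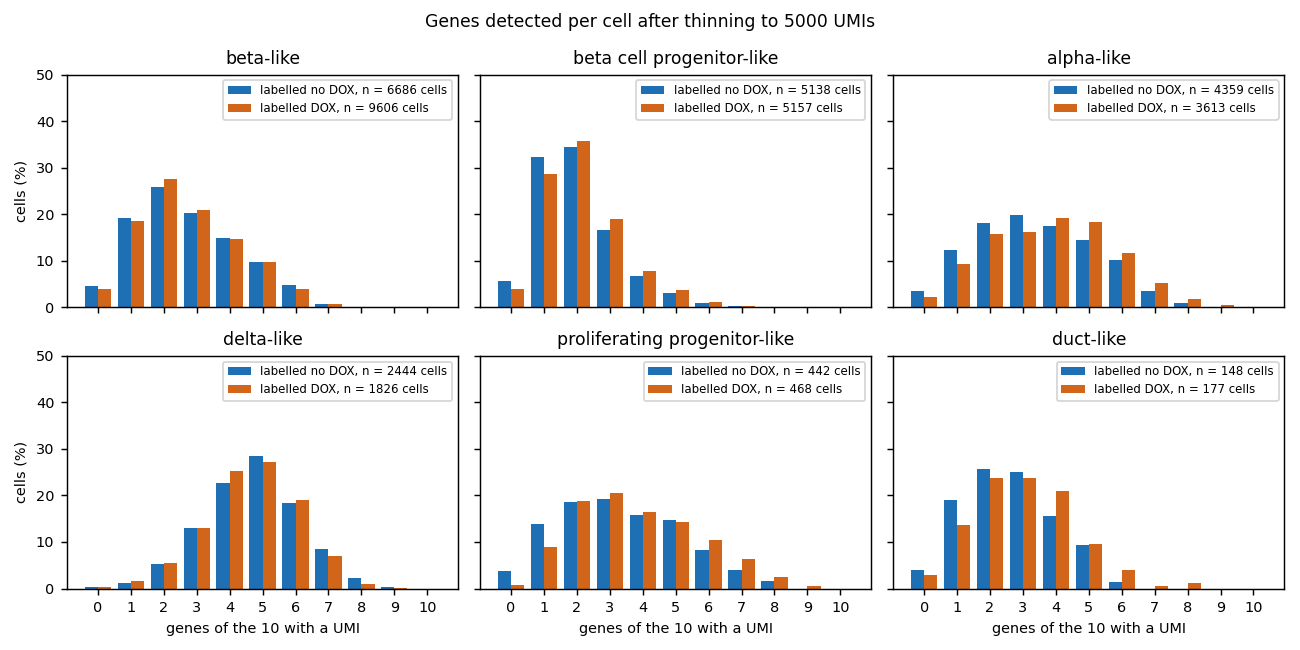
Share of cells in percent (vertical) by the number of the 10 genes with a UMI (horizontal) after thinning to 5000 UMIs, in 6 classes and both libraries. Delta-like cells peak at 5 genes and beta cell progenitor-like cells at 2.

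Detection of FOS went with that of most other members. Among beta-like cells of the library labelled no DOX, IER2 was found in 64.5% of cells with a FOS UMI and 29.9% of cells without one, EGR1 in 42.5% and 18.2%, JUNB in 34.7% and 16.9%, and ATF3 in 7.09% and 1.86%. JUND, at 83.6% and 79.5%, and IER3, at 8.08% and 7.31%, differed little. In the library labelled DOX the same pairs were 65.7% and 35.2% for IER2, 37.1% and 17.7% for EGR1, 38.7% and 18.5% for JUNB and 5.11% and 1.82% for ATF3. Delta-like cells showed smaller gaps, with IER2 in 80.8% and 67.4% and EGR1 in 76.1% and 63.4% in the library labelled no DOX. HSPA1A, a heat shock gene that is not among the 10, was found in 42.2% and 30.4% of beta-like cells with and without FOS in the first library and in 11.3% and 9.85% in the second. The ratio of the 2 shares was 1.39 and 1.14 for HSPA1A. It was 1.40 and 1.40 for the member JUN, and 1.30 and 1.08 for the heat shock gene DNAJB1. A share has an upper limit, so these ratios are held down for genes found in many cells without FOS, such as JUN and JUND. Mean UMIs per beta-like cell with and without FOS were 2.10 and 1.07 for JUN in the first library. They were 0.72 and 0.45 there for HSPA1A, and 2.22 and 1.77 for JUND. In the second library they were 1.94 and 1.04 for JUN, 0.13 and 0.11 for HSPA1A, and 2.17 and 1.82 for JUND. Cells of 1 library share their handling and are not replicates, so these shares describe the cells only.

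**Figure D5:**
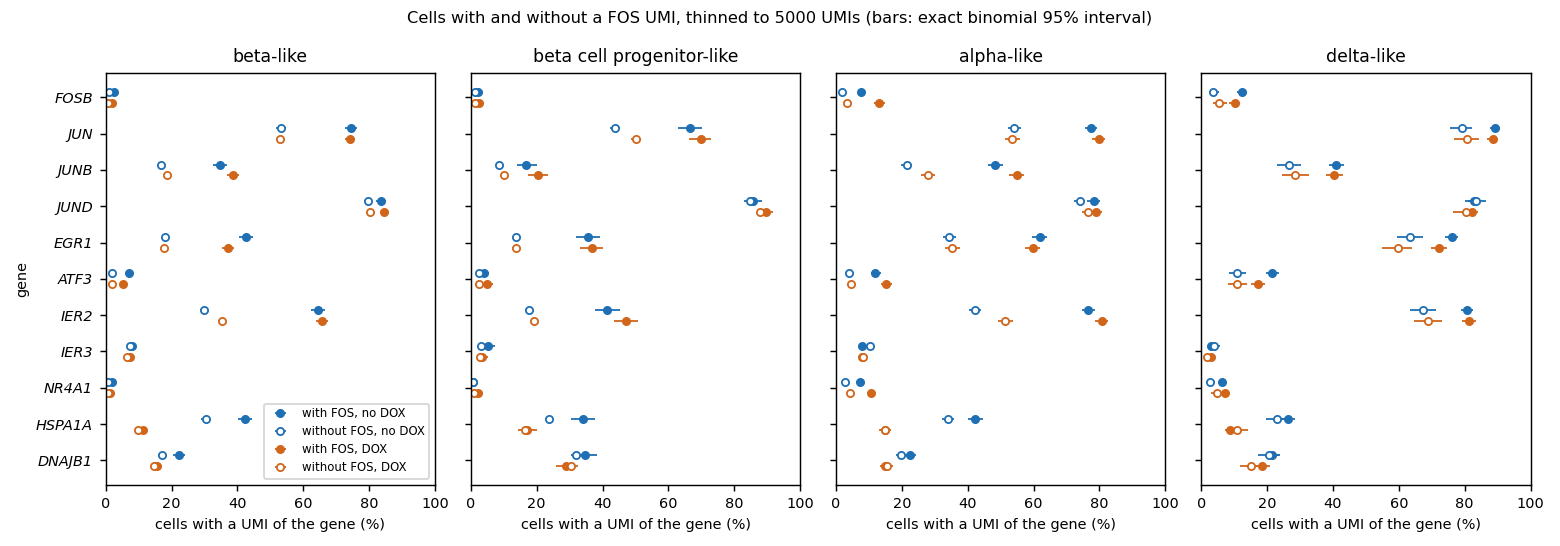
Share of cells in percent (horizontal) with a UMI of each gene (vertical), for cells with (filled) and without (open) a FOS UMI, thinned to 5000 UMIs, in 4 classes with exact binomial 95% intervals. The gap is wide for IER2 and EGR1 in beta-like cells (64.5% against 29.9% for IER2 in blue) and small for JUND and IER3.

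Finer clusters and depth showed further spread inside the classes. At Leiden resolution 0.5, a beta cell progenitor-like cluster of 392 and 633 cells led by CA2 and PHOX2A had JUND at 788 and 815 CPM, JUN at 362 and 368 CPM and FOS at 82.4 and 124 CPM, above 451 and 498, 161 and 188, and 36.3 and 36.3 CPM in the larger progenitor-like cluster. Among beta-like cells JUNB stood at 144 and 136 CPM in the cluster led by MXRA8 and MFAP4 and at 64.7 and 60.2 CPM in the cluster led by MT1B and FABP1, while ATF3 went the other way, at 3.2 and 4.4 CPM against 13.7 and 7.3 CPM. When beta-like cells of the library labelled no DOX were split by depth into 3 equal groups, ATF3 was at 6.81, 6.80 and 17.2 CPM and FOS at 119, 112 and 160 CPM from the shallowest to the deepest. The library labelled DOX, split by its own depth, had ATF3 at 6.42, 7.65 and 9.54 CPM. The groups were not of equal depth, with medians of 12433.5 and 10921 UMIs in the shallowest and 25238.5 and 20697 UMIs in the deepest. The 2 libraries were thus close for ATF3 in the shallowest group of each and apart in the deepest, and the part of depth was not tested.

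Over the 12 values of the 6 classes in 2 libraries, FOS and IER2 were most alike (Pearson r of log2(CPM + 1) 0.98), followed by FOS and EGR1 (0.93) and IER2 and JUNB (0.92). JUND and IER3 stood apart, with r of -0.74 to each other and -0.08 and -0.22 to FOS. Among 8207 other genes with at least 10 CPM, BTG2 was nearest to the mean of the 10 (0.95), with 161 and 178 CPM in delta-like cells, 75.2 and 78.4 CPM in beta-like cells and, in beta cell progenitor-like cells, 32.8 and 37.7 CPM. NR2F1 (0.91) and LEPR (0.91) came next. For single genes the nearest were BTG2 for FOS and IER2 (0.97 and 0.99), LEPR for FOSB, ST3GAL6 for JUN, SDF2L1 for JUNB, ICA1L for JUND, SST for EGR1, H3F3B for ATF3, TRMT112 for IER3 and SOWAHC for NR4A1. The 12 values share libraries, classes and depth, so these r are descriptions over few points.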

How the data were processed

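The authors deposited raw UMI counts, not normalized, by gene and barcode for 2 libraries and 33694 genes. The file headers name Cell Ranger 3.0.2 and the submitters' processing notes Cell Ranger 3.0, kallisto, bustools 0.40.0 and GRCh38, while the study's methods count genes with kallisto and bustools, so these counts need not be those behind the published clusters. The labels' extraction protocol describes islet RNA, and the methods describe the 10X capture. For the kallisto counts the methods name an Ensembl GRCh38 transcriptome without its release. The annotation and the use of strand behind the deposited counts are not given in the sources used here. No per-sample column was left unused.

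Barcodes under 1000 UMIs were removed. Scrublet (scanpy 1.11.5, default parameters, per library) called 26.6% and 26.5% of them doublets, which were removed. Counts were scaled to 10000 per cell and log-transformed, total UMIs and mitochondrial share were regressed out of 2293 highly variable genes, and 50 principal components and 3 neighbours drawn from each of the libraries were passed to Leiden clustering (leidenalg 0.10.2, resolution 0.2 or 0.5). The neighbour step rebuilds that of the methods. A cluster was named where its class markers had a mean log2 fold of at least 1, at least 3 markers reached 2-fold and a marker was among its 10 leading genes. Markers are from the study's cluster markers without any gene of the lists used here, and so come from these libraries.

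Levels are UMIs summed over a group per 1000000 UMIs (CPM) with exact Poisson intervals, ratios have exact conditional binomial intervals and shares exact Clopper-Pearson intervals, all at 95% (scipy 1.17.1). Libraries were compared over genes reaching 5 CPM in 1 of them, and classes over genes with at least 5 CPM in 1 of the 2 classes in each library. The counts over genes with at least 5 CPM in beta-like cells of both libraries were added after seeing the data. With 1 library per condition, no test was made. Levels were not compared between genes, except that the gene with the highest CPM of each list was picked, without regard to length. Named genes were the 10 members, SOX9, the listed genes past 1.5-fold between libraries or 2-fold between delta-like and beta-like cells, the highest gene of each list, and the genes with the most similar profile over classes. Of the genes nearest to the mean profile, not all are reported here. Other genes named were chosen after their values were seen. The members and lists were chosen with earlier results of these data known. The ratio and interval computation was tested on simulated data. Positions are from GENCODE 44 on GRCh38 by Ensembl identifier, and promoters from RefSeq. Alternatives were other UMI minimums, doublets kept, a mitochondrial limit of 20%, thinning, other scalings, filters, folds, seeds and clusterings. Figures used matplotlib 3.10.9, and tables pandas 2.3.3 and numpy 2.4.6.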

Additional observations from a re-analysis of the deposited data

Results flagged for a closer look

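For 8 of the 10 genes the log2 ratio between libraries, DOX label over no DOX label, had an interval wholly above 0 in 1 class and wholly below 0 in another, and none of these differences was tested. For each gene the classes with the highest and the lowest such ratio were picked on these same values. Each difference is therefore the largest that the gene's classes gave. The difference between the 2 classes' log2 ratios was 1.26 for FOS, 2.59 for FOSB and 0.84 for EGR1 between duct-like and beta-like cells, 0.96 for JUNB and 0.85 for IER2 between duct-like and delta-like cells, 0.57 for JUN between beta cell progenitor-like and duct-like cells, 1.04 for ATF3 between proliferating progenitor-like and beta-like cells, and 1.39 for IER3 between proliferating progenitor-like and duct-like cells. Of these, 7 involve duct-like cells, of which there were 154 and 178. FOSB was under 5 CPM in beta-like cells of both libraries. ATF3 does not involve duct-like cells, with 0.53 (0.33 to 0.73) and -0.52 (-0.62 to -0.41).

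The 10 genes were also present in barcodes outside the comparisons. Summed over the 10, called doublets had 1357 and 1393 CPM, where 3 UMIs would be 0.013 and 0.014 CPM, and cells kept had 1370 and 1331 CPM. In the 585 and 361 barcodes under 1000 UMIs the sum was 853 and 863 CPM, where 3 UMIs would be 7.15 and 11.5 CPM.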

How the results depend on the processing

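With 1 library per condition, differences between the libraries include any difference between cultures, captures and runs, which cannot be told apart from DOX. No paired analysis was possible because each condition has 1 library. Over all cells kept, 0 of 10 genes passed 1.5-fold in either direction under all alternatives run, and the median log2 ratio was -0.018 with doublets kept, 0.12 with classes weighted equally, -0.093 after thinning and -0.077 with per-cell means, against -0.05. The count of 7 genes higher in delta-like cells was 6 with doublets kept or after thinning. At 1.5-fold the counts over beta-like cells were 7 in alpha-like and 7 in proliferating progenitor-like cells, against 4 and 4 at 2-fold, and after thinning to 5000 UMIs duct-like cells had 1, against 3. The median share of cells with a UMI was 16.9% at 2500 UMIs and 44.3% without thinning, against 27.9%. Of 116 ratios of single genes between libraries under alternatives, 109 kept their sign, and the others were FOS, FOSB, EGR1, ATF3 and IER2 with classes weighted equally and FOSB and IER2 with doublets kept. Of 1100 ratios between classes 1088 kept theirs. Leaving out shared barcodes, the unnamed cluster or the low-depth alpha-like cluster, and scaling class ratios to the median of all genes, were chosen after seeing the data. Scaling to that median gave 7 delta-like, 3 alpha-like, 3 proliferating progenitor-like and 2 duct-like genes. For the class counts at 1.5-fold, with doublets kept, after thinning and with this scaling, the share of all genes was not computed. Those counts therefore cannot be set against a general shift of genes in the class. With at least 5 CPM required in beta-like cells, also chosen after seeing the data, the counts were 5 delta-like, 2 alpha-like, 2 proliferating progenitor-like and 2 duct-like genes. Depth limits FOSB and NR4A1 most, with 6 and 18 UMIs in duct-like cells of the library labelled no DOX.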

Other observations

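The unnamed cluster, whose UMIs were 75.6% and 66.8% mitochondrial at the median, had FOSB at 42.2 CPM (34.9 to 50.5) and 36.0 CPM (29.5 to 43.5), above the 26.6 and 22.2 CPM of delta-like cells, while FOS there was at 79.6 and 73.7 CPM, JUNB at 32.4 and 30.3 CPM and JUND at 177 and 190 CPM. NR4A1 in it was at 16.9 and 26.3 CPM. These values come from 108 to 117 FOSB UMIs and 47 to 79 NR4A1 UMIs per library in cells with medians of 1891 and 2058.5 UMIs. At resolution 0.5 an alpha-like cluster of 800 and 577 cells had a median of 2810 UMIs and 0.80% mitochondrial UMIs, and FOSB in it was at 1.1 CPM in both libraries and ATF3 at 4.4 and 1.7 CPM, against 11.8 and 20.9 and 24.7 and 30.4 CPM in the larger alpha-like cluster. The cluster was picked out after its values were seen.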
